A study of Mus musculus with 4 samples.

Results

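The cells described here were 882 of the 11263 cells recovered from mouse intestinal adenomas that passed the limits on quality. They were chosen by counts of a few transcripts and were proposed as immature absorptive cells that carry antimicrobial genes. A cell was taken when at least 3 of 5 genes were detected in it, namely Dmbt1, Gsdmc4, Lypd8, Reg3g and Hsd11b2. It also had at most 2 unique molecular identifiers (UMIs, 1 per captured transcript molecule) from the brush border enzymes Sis, Lct, Anpep and Mme together, at most 1 from the villus tip genes Ada and Clca4a, and 0 from the adenoma genes Prox1, Notum and Nkd1 and from the leukocyte gene Ptprc. Every cell had at least 2000 UMIs, at least 200 genes and at most 20% mitochondrial UMIs. Because the rule read the same counts that are reported below, the levels of its genes are a description and carry no test. The selected cells are called members in the text.

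The tumors came from the small intestine of 11-week-old C57BL/6 mice labelled as males. ApcMin mice carried ApcMin/+ with Lef1 +/+, and VApcMinL mice carried ApcMin/+ with Lef1 fl/fl and Villin-Cre, a recombinase expressed throughout the intestinal epithelium from before birth. Both groups therefore carried the ApcMin allele, and no tissue without it was compared. Each group had 2 libraries of droplet 3′ RNA sequencing, each made from several pooled tumors of similar size and location, with replicate 1 on kit version 2 and replicate 2 on kit version 3.

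Absorptive enterocytes arise from dividing cells in intestinal crypts and gain digestive enzymes and nutrient transporters while they move up the villus. Cells of the lower villus carry a programme against bacteria, with secreted lectins such as Reg3g and with surface and mucus proteins such as Lypd8, which keeps flagellated bacteria away from the epithelium. Dmbt1 is a secreted scavenger receptor protein that binds bacteria, Gsdmc4 belongs to the gasdermins, a family of pore-forming proteins, and Hsd11b2 inactivates glucocorticoids in tissues that respond to mineralocorticoids. In the mouse genome (GRCm38) Dmbt1 lies on chromosome 7 at 131032053-131121630, Gsdmc4 on chromosome 15 at 63891264-63912297, Lypd8 on chromosome 11 at 58379043-58390728, Reg3g on chromosome 6 at 78466269-78468872 and Hsd11b2 on chromosome 8 at 105518755-105523988, all as protein-coding genes.

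The 4 libraries held 44660305 to 128247396 UMIs in all barcodes. The mitochondrial limit removed 20.1% and 20.2% of the barcodes with enough UMIs in the libraries of kit 2, 61.3% in ApcMin replicate 2 and 26.3% in VApcMinL replicate 2. The 2 libraries of kit 2 shared 9 cell barcodes, and every other pair shared 0 or 1. Members had medians of 15834, 15212, 31856 and 20102.5 UMIs. Wherever 4 values are given, they stand in this order: both libraries of kit 2 and then both of kit 3, each time ApcMin before VApcMinL. Among the members at least 1 UMI of a Y-linked gene (Ddx3y, Eif2s3y, Kdm5d or Uty) was found in 234 of 363, 0 of 231, 49 of 54 and 136 of 234 cells, and Xist, the RNA of the inactive X chromosome, in 2, 222, 0 and 70 cells. The library labelled VApcMinL replicate 1 therefore went against its label, and VApcMinL replicate 2 held both kinds of cell, with 10 members positive for both. Sex and genotype cannot be told apart in the comparisons of the groups below. Lef1, the gene targeted in VApcMinL mice, was close to 0 in the members, with 1, 2, 0 and 4 UMIs. In cells chosen for adenoma genes (defined below) it stood at 10.6, 34.5, 46.7 and 22.3 UMIs per 1000000 (CPM), so that within kit 2 it was higher in the library labelled VApcMinL and within kit 3 it was lower. A 3′ tag can lie outside the deleted exons, and where the tags lay was not examined. These levels therefore check neither the deletion nor the genotype labels.

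The rule found 363 members of 2441 cells, 231 of 2534, 54 of 2071 and 234 of 4217. Dmbt1, Lypd8 and Reg3g were detected together in 351, 218, 47 and 211 members, which was 96.7%, 94.4%, 87.0% and 90.2% of them. Members were thus chosen almost entirely by these 3 genes, and Gsdmc4 and Hsd11b2 added little. Exactly 3 of the 5 genes were detected in 231, 122, 20 and 125 members and all 5 in 21, 25, 11 and 25 members.

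Dmbt1 stood at 1583, 1627, 1580 and 1851 CPM in the summed counts of the members. In cells with at least 10 UMIs of the brush border enzymes and none of the adenoma genes, called enterocyte-gate cells, it stood at 416, 397, 335 and 506 CPM, so that the 2 classes did not overlap in any library. Lypd8 stood at 1644, 2646, 1927 and 2354 CPM in members and at 2651, 2307, 2847 and 3414 CPM in enterocyte-gate cells. Its ranges overlapped, and members were higher in the library labelled VApcMinL replicate 1 only. Reg3g stood at 1536, 1529, 532 and 2007 CPM in members against 3583, 1562, 1265 and 2771 CPM in enterocyte-gate cells, and it was lower in members in each library. Gsdmc4 was low, at 19.4, 44.5, 48.7 and 16.8 CPM in members and 3.71, 19.6, 45.2 and 18.4 CPM in enterocyte-gate cells. Of the 50-base windows in the last 500 bases of Gsdmc4 transcripts, 7.96% also occur in Gsdmc, Gsdmc2 or Gsdmc3, so the split of reads within this family is uncertain. Hsd11b2 was also low, at 27.0, 36.6, 25.5 and 36.6 CPM in members against 13.9, 5.56, 6.44 and 16.5 CPM in enterocyte-gate cells. Of the 5 genes, then, Dmbt1 and Hsd11b2 were the pair whose levels in members lay above those of enterocyte-gate cells in every library.

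**Figure D1:**
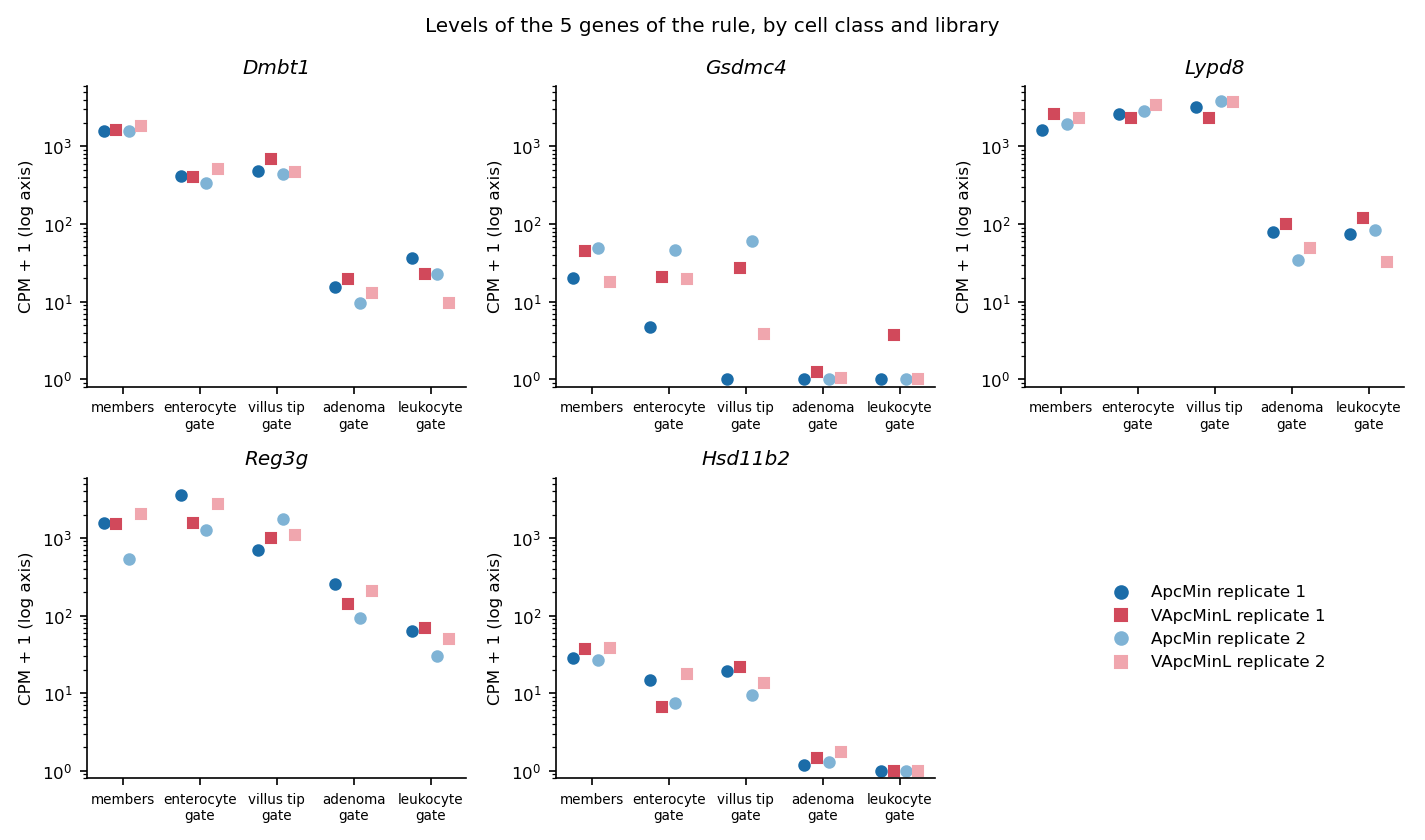
Level of each of the 5 genes of the rule (CPM + 1, log axis) in the summed cells of 5 classes, with 1 point per library. Dmbt1 in members lies at 1580 to 1851 CPM in the 4 libraries and at 335 to 506 CPM in enterocyte-gate cells, while Lypd8 and Reg3g overlap between these classes.

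Free RNA in droplets gives UMIs in cells that do not express a gene. In leukocyte-gate cells (at least 2 Ptprc UMIs and no Epcam, median 3276.5 to 4668 UMIs a cell) Dmbt1 stood at 8.65 to 35.3 CPM, Lypd8 at 31.7 to 117 CPM and Reg3g at 29.2 to 68.0 CPM. Hsd11b2 had no UMI in them. All of the members' values for Dmbt1, Lypd8 and Reg3g lay above this background. The rule chose members by detection of these genes, so this order is a description and not a check on free RNA.

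The members were not uniform in the genes that chose them. Dmbt1 ranged from 0 to 58.6 UMIs per 10000 over the members of ApcMin replicate 1, with a median of 12.5, and had medians of 14.9, 15.7 and 16.2 in the other libraries. Reg3g ranged from 0 to 220 UMIs per 10000 in VApcMinL replicate 2, with medians of 8.46, 6.98, 1.95 and 7.17 over the 4 libraries. Reg3g was lowest in ApcMin replicate 2 both in its median and in its summed level. Cells just outside the rule, with 2 of the 5 genes detected, numbered 168, 64, 32 and 58. They had Dmbt1 at 143, 225, 81.3 and 224 CPM and median depths of 5981.5, 6157, 7710.5 and 13571.5 UMIs. Cells just inside, with 3 detected, had Dmbt1 at 1220, 1186, 757 and 1258 CPM and medians of 14469, 13661, 20890.5 and 18761 UMIs, so that the cells on the 2 sides of the threshold differed in depth as well. On the enzyme limit, the 15, 15, 12 and 23 cells with 3 enzyme UMIs in place of 2 had Dmbt1 at 2237, 1928, 1989 and 2586 CPM. Cells just inside, with 2 enzyme UMIs, had it at 1950, 2022, 2189 and 1977 CPM, so the order differed between libraries.

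The label of immature absorptive cells was checked against lists of genes. The list of absorptive maturation holds 35 genes of fat, sugar and peptide uptake such as Fabp1, Apoa1, Rbp2 and Slc5a1. Its summed level in members was 4914, 8867, 3735 and 4309 CPM, against 77177 to 95599 CPM in enterocyte-gate cells, 1040 to 1987 CPM in adenoma-gate cells and 969 to 2418 CPM in leukocyte-gate cells. The sum was thus above the free RNA background in each library, but at a small part of the level in enterocyte-gate cells. Single genes of the list were not all above that background in CPM. Apoa1 stood at 216, 438, 179 and 92.7 CPM in members and at 279, 483, 367 and 169 CPM in leukocyte-gate cells, lower in members in each library. Fabp1 stood at 709.8, 1160, 157 and 346 CPM against 238, 236, 186 and 104 CPM, lower in ApcMin replicate 2. In UMIs per cell the medians of Apoa1 were 3, 5, 5 and 1 in members and 1, 2, 2 and 1 in leukocyte-gate cells. Those of Fabp1 were 3, 5, 3 and 1 against 1, 1, 1 and 0. Leukocyte-gate cells had fewer UMIs each, so the order of the classes depends on the scale. These values do not decide whether the 2 genes were at background. The list of 32 cell cycle genes stood at 3983, 3036, 6255 and 4071 CPM in members, at 304 to 441 CPM in enterocyte-gate cells and at 3514 to 4634 CPM in adenoma-gate cells. Mki67, a marker of dividing cells, was detected in 44.6%, 32.0%, 79.6% and 61.1% of members, and in 13.8%, 6.93%, 38.9% and 25.6% after each cell was thinned to 2000 UMIs. In enterocyte-gate cells it was detected in 4.83% to 9.76%, and in 0% to 1.74% after thinning, below the members of every library. The 20 genes of crypt and stem cells stood at 1183, 864, 1504 and 1452 CPM in members, 127 to 198 CPM in enterocyte-gate cells and 1668 to 4657 CPM in adenoma-gate cells.

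Olfm4, which marks crypt base cells, split the members by kit. It stood at 13.4, 3.85, 1002 and 802 CPM and was detected in 15.2%, 5.19%, 70.4% and 45.3% of members. After thinning the shares were 3.03%, 0.433%, 40.7% and 29.9%. Leukocyte-gate cells had an Olfm4 UMI in 0%, 0%, 2.13% and 4.29%, and in 0%, 0%, 2.13% and 2.86% after thinning. Members of the 2 libraries of kit 3 were far above this background. In kit 2 only 81 and 92 leukocyte-gate cells were present, too few to place the thinned value of VApcMinL replicate 1 against background. Lgr5, a receptor of crypt stem cells, was detected in 10.7%, 4.76%, 20.4% and 19.7% of members. The members thus held cycling and crypt genes as well as antimicrobial genes. Their absorptive genes were low against enterocyte-gate cells, a direction not independent of the limits on brush border enzymes. In sum these genes were above adenoma-gate cells in each library. That direction is not independent of the gates either, since adenoma-gate cells had to have fewer than 3 of the 5 genes of the rule. The lists therefore do not decide for or against the proposed label. The members are named here by their rule and by Dmbt1, Lypd8 and Reg3g and are given no cell type.

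**Figure D2:**
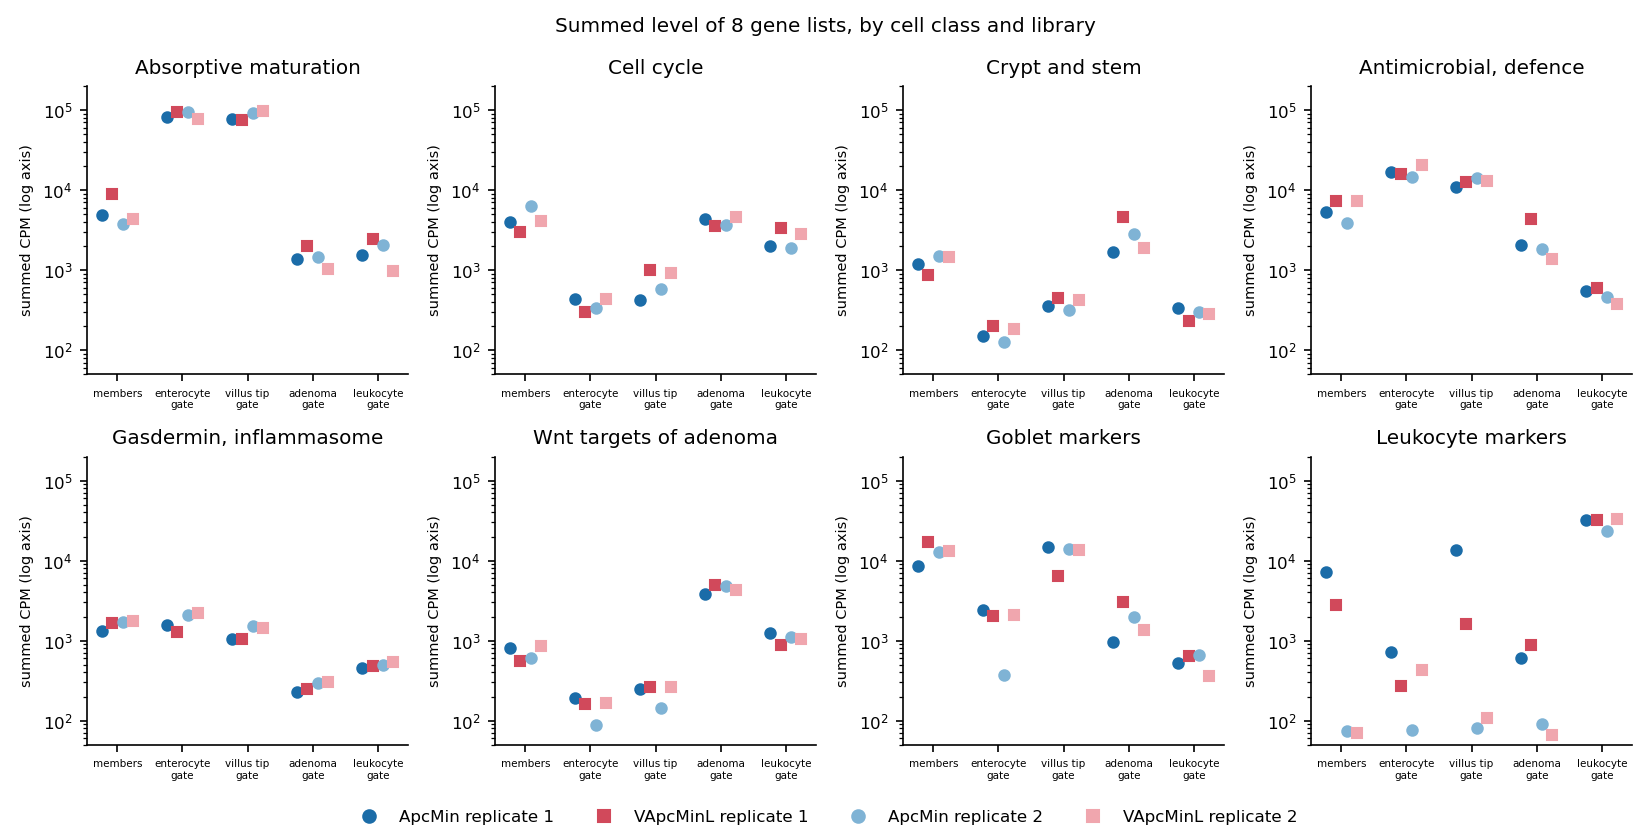
Summed level (CPM, log axis) of 8 gene lists in members, enterocyte-gate, villus-tip-gate (at least 4 UMIs of Ada and Clca4a), adenoma-gate and leukocyte-gate cells, with 1 point per library. In members the absorptive maturation list lies between 3735 and 8867 CPM and the cell cycle list between 3036 and 6255 CPM, while enterocyte-gate cells lie at 77177 to 95599 CPM and 304 to 441 CPM.

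Within the members the cell cycle divided the cells. At least 20 cell cycle UMIs per 10000 were found in 205, 103, 42 and 136 members, which was 56.5%, 44.6%, 77.8% and 58.1%. These had absorptive maturation genes at 3334, 5213, 3318 and 2874 CPM, against 7831, 12580, 6328 and 6862 CPM in the remaining members, and were lower in each library. Lypd8 was also lower in them in each library, at 1380, 2111, 1483 and 1671 CPM against 2120, 3177, 4668 and 3560 CPM. Dmbt1 showed no such order, with 1526, 1451, 1595 and 1713 CPM in cycling members and 1679, 1797, 1472 and 2088 CPM in the rest. Olfm4 was higher in cycling members in each library, at 16.8, 5.44, 1157 and 1101 CPM against 6.93, 2.21, 29.2 and 269 CPM. Cycling members had more UMIs, with medians of 18687, 17080, 33845 and 22344.5 against 13413.5, 14014, 22163 and 17019. These splits were made on the same counts and are descriptions.

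A minority of the members carried the markers of another cell type. Markers of goblet cells, the mucus-secreting cells of the epithelium, made up at least 1% of UMIs in 28, 20, 9 and 25 members, which was 7.71%, 8.66%, 16.7% and 10.7%. These members held 93.2% to 96.5% of all goblet marker UMIs of the class, and all 10 goblet markers were detected in each library. The summed goblet list stood at 8633 to 17028 CPM over all members and at 559 to 654 CPM in members below the limit for both goblet and leukocyte markers. Dmbt1 was lower in the goblet-marked members, at 1029, 893, 1174 and 696 CPM against 1695, 1727, 1650 and 2017 CPM in the members below both limits. Leukocyte markers reached 1% in 29, 9, 0 and 0 members, led by Jchain of plasma cells at 6901 and 2484 CPM over all members of the libraries of kit 2. These cells had Dmbt1 at only 257 and 223 CPM and median depths of 6354 and 5707 UMIs. Haemoglobin and other erythroid markers reached 1% in 7 members, all of ApcMin replicate 1. Tuft cell markers reached it in no member, with Gnat3 and Il25 at 0 in each library, and at most 4 members of a library passed the limit for Paneth cell or stromal markers. In VApcMinL replicate 2 enteroendocrine markers reached the limit in 2 members and stomach markers in 1. In all, 67, 30, 10 and 29 members reached the limit for at least 1 list. A doublet score marked 2, 4, 0 and 4 members.

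To see which genes set the members apart from absorptive cells with enzymes, UMIs were summed over members and over the 216, 290, 618 and 461 enterocyte-gate cells of each library and tested with edgeR with the library as a block. The classes were drawn from the same cells, and genes that vary with the gate genes are not independent of the gates. The p-values measure only the spread between libraries, and no label says that each library came from different animals. Of 10335 genes tested, 68.0% were called at an adjusted p of 0.05, 33.9% higher in members and 34.1% lower. With a call rate this high, a called gene is no particular sign of the members, and sizes matter more than calls. Enterocyte-gate cells had fewer UMIs (medians 9088.5, 9690.5, 25882 and 16684) and higher mitochondrial shares (medians 12.3%, 14.2%, 13.6% and 11.4% against 4.97%, 5.50%, 5.89% and 7.17% in members), and the part of these differences in the results was not tested. Levels given for this comparison and the next are CPM after scaling within the comparison.

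Slc12a2 and 3 histone genes were among the 10 largest rises in members. Genes named as the largest rises and falls, here and against adenoma-gate cells, had to have the same direction in all 4 libraries. Their lack of overlap between the classes follows in large part from this choice and is no further evidence. Slc12a2, the chloride importer of the basal membrane of crypt cells, stood at 168, 101, 309 and 293 CPM in members and at 4.87, 4.14, 4.76 and 16.7 CPM in enterocyte-gate cells. Members were higher in each library without overlap, by 4.97 ± 0.29 on the log2 scale (SE, adjusted p = 4.72e-08). Clca3b stood at 226, 136, 290.5 and 249 CPM against 5.53 to 15.0 CPM, a log2 difference of 4.78 ± 0.26. Pclaf, a partner of the replication clamp PCNA, stood at 139 to 297 CPM against 5.41 to 10.3 CPM, a difference of 4.69 ± 0.29. The histone genes Hist1h1b, Hist1h2ae and Hist1h2ap, the chromatin remodeller Hells and the spindle protein gene Nusap1 differed by 4.51 to 4.77. The largest rise was that of Retnlb, a bactericidal protein secreted by goblet cells, at 83.2, 156, 12.4 and 39.4 CPM against 3.79, 4.52, 0.210 and 0.131 CPM (5.46 ± 0.31). Agr2, a disulfide isomerase of secretory cells, stood at 1078, 1111, 1858 and 2296 CPM against 16.4 to 158 CPM (4.58 ± 0.45). Without members in which any 1 list of markers of other cell types held at least 1% of UMIs, Retnlb did not pass the filter on low counts and Agr2 differed by 1.35. Here and wherever this setting is given below, such cells were left out of the members only. The class compared with them kept such cells.

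Among the 10 largest falls Slc2a2, the basolateral glucose transporter, had 0.466, 0.523, 0 and 0.162 CPM in members and 76.9, 181, 117 and 123 CPM in enterocyte-gate cells, a fall of 8.42 ± 0.28 (adjusted p = 1.41e-09). Slc15a1, the peptide transporter, stood at 1.30 to 3.92 CPM against 168 to 276 CPM (-6.75 ± 0.21). Leap2, a secreted peptide that binds the ghrelin receptor, stood at 1.30 to 7.84 CPM against 273 to 783 CPM (-7.05 ± 0.23). Tmigd1, Slc5a11, Slc5a4b, G6pc, Cubn, Slc13a2 and Bst1 fell by 6.90 to 8.15. None of these genes overlapped between the classes, which follows in large part from the way they were picked.

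**Figure D3:**
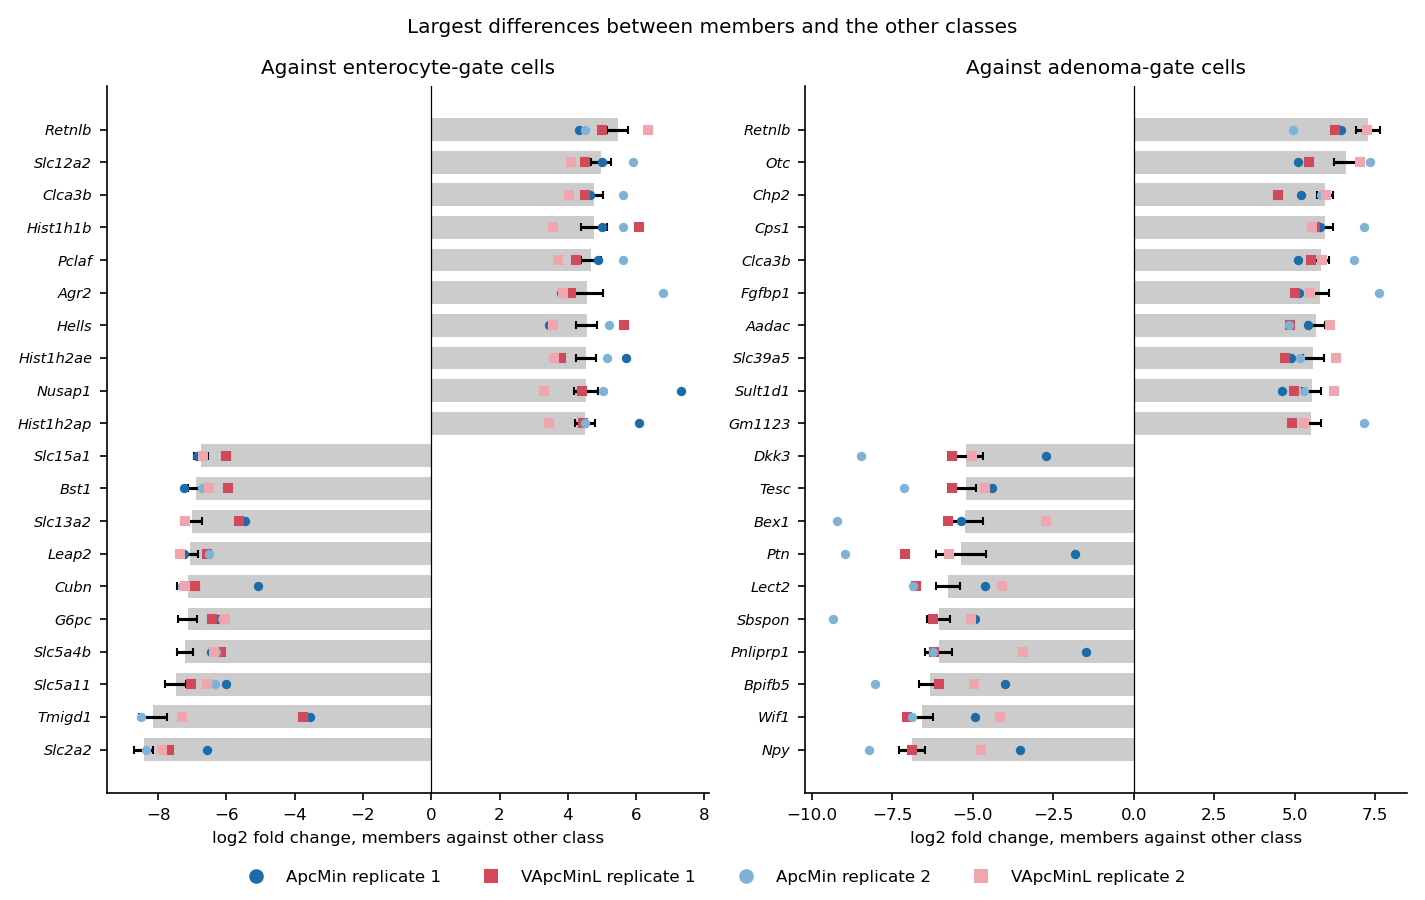
The 10 largest called rises and the 10 largest called falls against enterocyte-gate cells (left) and adenoma-gate cells (right), as log2 fold change with bars and SE from edgeR and 1 point per library for the log2 difference of CPM with a prior count of 2. All points of a gene lie on the same side of 0, which the choice of genes required. The points can be smaller than the bar because the prior count pulls low counts toward 0.

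Of 19 antimicrobial and defence genes tested against enterocyte-gate cells, 8 were higher in members and 7 were lower. Over all genes 33.9% were higher and 34.1% lower, so these counts are near the general share and are no result about the list. The median log2 difference was 0.64 against 0.00348 over all genes. Pglyrp1, which binds bacterial peptidoglycan, was higher in members, at 319 to 599 CPM against 119 to 197 CPM (1.38 ± 0.15). Reg3b, a lectin of the same family as Reg3g, was lower, at 676 to 3021 CPM against 3781 to 9774 CPM (-2.01 ± 0.29). Reg1 was lower by 3.35 ± 0.37, Pigr, which carries IgA across the epithelium, by 1.58 ± 0.20 and the membrane mucin gene Muc13 by 1.70 ± 0.18. Reg4 was higher, at 252 to 575 CPM against 20.3 to 65.3 CPM (3.49 ± 0.22), and so was Slpi, a protease inhibitor, by 1.96 ± 0.69, although Slpi was higher in 2 libraries and lower in 2. Without the members that carried markers of other cell types Reg4 turned to -1.77 and Slpi to -1.57, and the list had 5 genes higher and 9 lower of 17 with a median of -1.26. That setting left marked cells out of the members only, which by itself lowers genes of such cells in members. It therefore does not decide whether the antimicrobial genes outside the rule were mostly above or below enterocyte-gate cells.

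Oxidase and peroxide genes had 3 of 6 higher and 0 lower, with a median of 0.83, where 33.9% of all genes were higher and 34.1% lower. Gpx2, a glutathione peroxidase of the gut epithelium, stood at 1035 to 1402 CPM against 347 to 562 CPM (1.54 ± 0.15), Cyba, a subunit of NADPH oxidases, was higher by 1.01 ± 0.14 and Noxa1, an activator of Nox1, by 3.38 ± 0.24. Of 15 gasdermin and inflammasome genes 2 were higher and 11 lower, with a median of -1.23. Those higher were Gsdmc2 (0.81 ± 0.24) and Gsdmc3 (0.90 ± 0.37), neighbours of Gsdmc4 that share 42.8% and 31.9% of their 3′ windows with the family, and Gsdmc2 turned to -0.56 with a mitochondrial limit of 10%. Il18, the cytokine released by inflammasomes, was lower, at 9.98 to 23.0 CPM against 153 to 233 CPM (-3.56 ± 0.23), as were Gsdmd (-3.20 ± 0.18), the sensor Nlrp6 (-1.46 ± 0.14) and Casp1 (-1.04 ± 0.23). Of 10 cytokine receptor and Stat3 genes 9 were lower and 1 was higher, with a median of -1.23. Il1rn, which blocks the interleukin 1 receptor, was the one higher (3.08 ± 0.39), and Stat3 was lower (-1.28 ± 0.13).

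Ion and water transport genes were mostly lower, with 14 lower and 3 higher of 19 and a median of -1.90. Over all genes 34.1% were lower and 33.9% higher. The genes higher were Slc12a2, the potassium channel gene Kcnn4 (3.59 ± 0.15) and Aqp4 (4.19 ± 0.36). Guca2b, the precursor of uroguanylin, stood at 33.3 to 100 CPM against 2695 to 3997 CPM (-5.73 ± 0.25). Of 34 absorptive maturation genes all 34 were lower, with a median of -4.24, a direction that is not independent of the gates on brush border enzymes. Fabp1 stood at 129 to 1105 CPM against 16798 to 25288 CPM and Apoa1 at 76.8 to 418 CPM against 14382 to 16205 CPM. Of 30 transcription factor genes of absorptive cells 22 were lower and 2 higher, with a median of -0.97. The 2 higher were Cdx1 (0.99 ± 0.14), a regulator of intestinal identity, and Hes1 (0.96 ± 0.13), the Notch target that holds progenitors on the absorptive path, whereas Maf was lower, at 11.2 to 26.4 CPM against 268 to 424 CPM (-4.28 ± 0.21).

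Crypt and cell cycle genes were higher in members almost throughout, where 33.9% of all genes were higher and 34.1% lower. Of 17 crypt and stem genes 16 were higher and 0 lower (median 2.95), and of 32 cell cycle genes 31 were higher and 0 lower (median 3.56). Hmgb2 stood at 536 to 993 CPM against 47.1 to 91.4 CPM (3.29 ± 0.18) and Stmn1 at 277 to 484 CPM against 16.1 to 30.9 CPM (3.89 ± 0.25). Of 14 Wnt target genes of adenomas 10 were higher and 1 lower, with Ccnd1 at 86.0 to 134 CPM against 7.90 to 21.5 CPM (2.98 ± 0.19) and Cd44 higher by 3.53 ± 0.21. All 15 MHC class I and interferon genes tested were lower (median -1.99), B2m among them at 186 to 729 CPM against 756 to 2879 CPM (-1.93 ± 0.17), and 5 of 6 MHC class II genes were lower. Ileal genes were lower in 6 of 6 and duodenal genes in 7 of 8 tested, so that members had fewer transcripts of both ends of the small intestine. Of 16 keratin and epithelial genes 3 were higher and 8 lower, in all close to the 68.0% of all genes called. Krt18 was higher, at 764 to 968 CPM against 113 to 167 CPM (2.59 ± 0.17), and so was Cldn2, a leaky tight junction protein of crypts, by 2.04 ± 0.16. Dissociation stress genes were lower in 10 of 14 and higher in 0, and Notch and secretory fate genes were higher in 5 and lower in 1 of 8.

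The 10 goblet markers were all higher in members and 9 of 10 Paneth markers were higher with 0 lower. Without the members that carried other markers 1 goblet marker was higher and 6 were lower of 8, and 1 Paneth marker was higher and 5 were lower of 10. Enterocyte-gate cells with such markers were kept, so these falls are not independent of the filter. The absorptive list kept 34 of 34 lower in that setting, the cell cycle list had 32 of 32 higher, the crypt list 16 of 17 higher and the MHC class I list 15 of 15 lower.

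The second comparison set the members against adenoma-gate cells, which had at least 2 of Prox1, Notum and Nkd1 detected, Epcam detected, fewer than 3 of the 5 genes of the rule and the same limits on the other genes. These numbered 279, 285, 145 and 1359 and had median depths of 18398, 14574, 21765 and 22578 UMIs. Of 11144 genes tested, 42.2% were called, 20.6% higher in members and 21.6% lower, with a median log2 difference of -0.00371 over all genes.

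Retnlb again led the rises (7.26 ± 0.37) and again did not pass the filter without the members that carried other markers. The urea cycle genes Otc and Cps1 were also among the 10 largest. Otc, ornithine transcarbamylase of the urea cycle, stood at 88.2, 86.6, 163 and 141 CPM in members and at 2.36, 1.77, 0.766 and 0.851 CPM in adenoma-gate cells, a log2 difference of 6.59 ± 0.37 (adjusted p = 2.21e-05). Cps1, which catalyses the first step of the same cycle, stood at 476, 427, 505 and 413 CPM against 8.36, 8.39, 3.32 and 8.59 CPM (5.95 ± 0.26). Both genes were higher in each library, as the choice of named genes required, and did not overlap. Gm1123 stood at 253 to 308 CPM against 1.79 to 8.39 CPM (5.52 ± 0.30) and Clca3b at 162 to 348 CPM against 2.81 to 7.63 CPM (5.82 ± 0.25). Chp2, Fgfbp1, the esterase gene Aadac, the zinc transporter gene Slc39a5 and the sulfotransferase gene Sult1d1 differed by 5.53 to 5.95.

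The largest falls were Npy, Wif1, Bpifb5, Pnliprp1, Sbspon, Lect2, Ptn, Bex1, Tesc and Dkk3, which ran from -6.88 to -5.20 on the log2 scale. Wif1, a secreted inhibitor of Wnt ligands, had 0.186, 2.18, 1.14 and 0.783 CPM in members and 12.7, 318, 161 and 17.7 CPM in adenoma-gate cells. Tesc stood at 2.28 to 7.47 CPM against 147 to 386 CPM. Npy, a neuropeptide, stood at 0 to 1.56 CPM against 6.01 to 213 CPM. Each of the 10 was lower in members in every library, as the choice of named genes required. All but Pnliprp1 did not overlap between the classes, which follows in large part from the same choice.

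Over all genes 20.6% were called higher against adenoma-gate cells and 21.6% lower. Antimicrobial genes were more often higher than lower, 11 against 3 of 19 (median 1.14). This direction is not independent of the gates, since adenoma-gate cells had to have fewer than 3 of the 5 genes of the rule. Reg3b stood at 810 to 3650 CPM in members and at 87.4 to 197 CPM in adenoma-gate cells (3.89 ± 0.30), Pigr at 945 to 957 CPM against 86.1 to 162 CPM (2.99 ± 0.15) and Reg1 at 265 to 1834 CPM against 80.0 to 131 CPM (2.93 ± 0.39). Cldn4, Ltf and Fut2 were lower, by 2.69 ± 0.15, 3.96 ± 0.29 and 2.71 ± 0.35. Reg4 was higher by 4.87 ± 0.26 but turned to -0.48 without the members that carried other markers, and the list then had 8 genes higher and 4 lower of 18 with a median of -0.01. Inflammasome genes were higher in 11 and lower in 1 of 16 (median 2.02). This direction is likewise not independent of the gates, since the gasdermin gene Gsdmc4 is a gene of the rule. Pycard, the adaptor of inflammasomes, stood at 1125 to 1379 CPM against 42.9 to 85.9 CPM (4.30 ± 0.21), Nlrp6 at 79.6 to 118 CPM against 1.53 to 10.1 CPM (4.34 ± 0.32) and Casp1 at 66.2 to 95.0 CPM against 7.95 to 9.80 CPM (3.15 ± 0.15). Gsdma was the one lower (-4.92 ± 0.50).

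Oxidase genes were higher in 4 and lower in 1 of 6, where 20.6% of all genes were higher and 21.6% lower. Duox2, which makes hydrogen peroxide at the apical membrane, stood at 14.3 to 32.7 CPM against 0.954 to 3.53 CPM (3.46 ± 0.27), its maturation factor gene Duoxa2 was higher by 2.53 ± 0.32 and Noxo1 by 2.42 ± 0.20, whereas Cyba was lower (-1.01 ± 0.14). Cytokine receptor and Stat3 genes had 2 higher and 3 lower of 9, Stat3 (-1.20 ± 0.15), Socs3 (-1.30 ± 0.26) and the alarmin gene Il33 (-1.89 ± 0.22) being lower. Ion transport genes had 14 higher and 3 lower of 20, with Guca2a, the precursor of guanylin, at 187 to 477 CPM against 6.18 to 13.3 CPM (4.79 ± 0.28, and 1.92 without the members that carried other markers). Absorptive maturation genes were higher in 23 and lower in 0 of 30 (median 1.93). The rule genes Lypd8 and Reg3g were high in enterocyte-gate cells too. The directions of the ion transport and absorptive lists are therefore not independent of the gates. Prap1 stood at 874 to 2368 CPM against 56.0 to 186 CPM (3.79 ± 0.16) and Fabp2 at 506 to 755 CPM against 48.4 to 156 CPM (2.60 ± 0.21), while Rbp2 and Fabp1 overlapped in part between the classes (2.76 ± 0.43 and 2.31 ± 0.33). Of 29 transcription factor genes 15 were higher and 8 lower. Hnf4a stood at 160 to 217 CPM against 22.3 to 49.0 CPM (2.48 ± 0.20) and Cdx1 at 116 to 188 CPM against 3.53 to 27.4 CPM (3.62 ± 0.43), whereas Id2 (-3.43 ± 0.18) and Id3 (-2.57 ± 0.22), inhibitors of basic helix-loop-helix factors, were lower.

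Wnt target genes were lower in 16 and higher in 0 of 20 (median -2.50), a direction that is not independent of the gates on Prox1, Notum and Nkd1. Sox17 stood at 3.42 to 22.1 CPM against 192 to 356 CPM (-4.48 ± 0.30) and Ifitm3 at 187 to 498 CPM against 2424 to 2971 CPM (-3.04 ± 0.20). Crypt and stem genes were split, with 5 higher and 8 lower of 19. Smoc2 was higher (1.31 ± 0.19) and Gkn3 (-3.18 ± 0.35) and the Wnt feedback gene Axin2 (-1.82 ± 0.25) were lower. Cell cycle genes had 11 higher and 1 lower of 32 (median 0.32), with Hmgb2 higher by 0.91 ± 0.16 and Tubb5 lower by 0.68 ± 0.18. Keratin and epithelial genes were higher in 13 and lower in 2 of 16, with Lgals4 at 3471 to 4539 CPM against 357 to 1231 CPM (2.56 ± 0.31). MHC class II genes were called higher in 5 of 5, but their sum was 322, 274, 13.9 and 60.4 CPM in members against 89.4, 116, 25.7 and 12.4 CPM in adenoma-gate cells, lower in members in ApcMin replicate 2. Leukocyte-gate cells held 18160 to 35217 CPM of these genes, and without the members that carried other markers 3 of 5 were higher. MHC class I and interferon genes were higher in 6 of 14 with 0 lower, and in 6 with 3 lower without those members. Ileal genes had 5 higher and 1 lower of 6, duodenal genes 2 higher and 1 lower of 7, Notch and secretory fate genes 3 higher and 1 lower of 8, and dissociation stress genes 0 higher and 7 lower of 14. The duodenal and Notch counts were in all close to the 42.2% of all genes called. Stomach markers were lower in 7 of 8 and tuft markers in 7 of 7. Goblet markers were higher in 8 of 10 and leukocyte markers in 4 of 11, with 0 of 8 in each list once members carrying other markers were left out.

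The share of members among epithelial cells (at least 1 Epcam UMI and no Ptprc UMI) was compared between the groups over libraries. It was 19.6% in ApcMin replicate 1 (356 of 1812, exact Clopper-Pearson 95% interval 17.8 to 21.6), 10.8% in VApcMinL replicate 1 (226 of 2088, 9.52 to 12.2), 2.91% in ApcMin replicate 2 (54 of 1857, 2.19 to 3.78) and 6.02% in VApcMinL replicate 2 (234 of 3886, 5.29 to 6.82). The intervals cover counting error only. The 4 intervals did not overlap, and the 2 ApcMin libraries were the highest and the lowest. The means were 11.3% ± 11.8 in ApcMin and 8.42% ± 3.40 in VApcMinL (SD, n = 2), a difference of -2.85 percentage points that was smaller than the spread within ApcMin (two-sided exact permutation test, p = 1.00, where 2 against 2 cannot go below 0.33). Within kit 2 the difference was -8.82 points and within kit 3 it was 3.11 points, so the direction was not shared. When each cell was first thinned to 2000 UMIs, so that the rule met the same depth everywhere but its upper limits became easier to pass, the shares were 18.0%, 19.5%, 9.05% and 9.31%. Thinned shares differed between the kits and hardly between the groups within a kit.

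**Figure D4:**
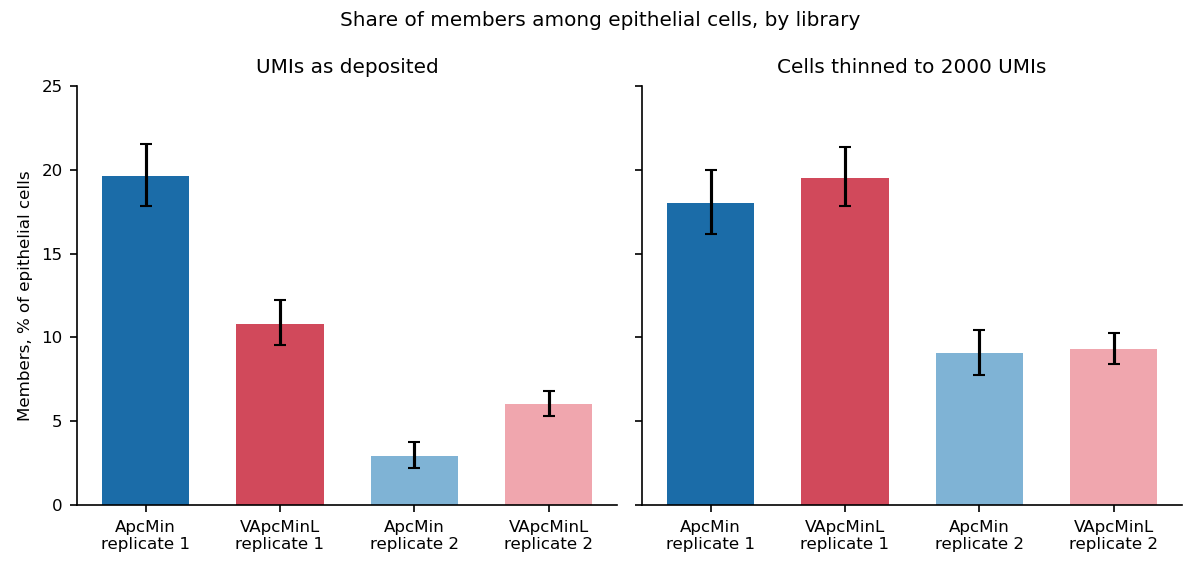
Share of members among epithelial cells (percent) in each library, on the UMIs as deposited (left) and on cells thinned to 2000 UMIs (right), with exact 95% binomial intervals as error bars. The deposited shares run from 2.91% to 19.6%, and the thinned shares are 18.0% and 19.5% in kit 2 and 9.05% and 9.31% in kit 3.

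The groups were then compared within the members, with 1 sum of UMIs per library and the kit as a block. Of 10661 genes tested, 23 were called (0.216%), 17 higher in VApcMinL (0.159%) and 6 lower (0.0563%). Over all genes 51.5% had the same direction in the 2 kit pairs. Of the 23 genes, 15 reached 20 CPM in 1 of the groups and moved the same way in each kit, and 14 of these were higher in VApcMinL. With 2 libraries a group, the labels of sex in doubt and the deletion of Lef1 not checked, these values describe the libraries first.

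Xist led the rises, with 0.350 and 749.5 CPM in the pair of kit 2 and 0 and 209 CPM in the pair of kit 3. Sprr2a3, a small proline-rich protein of stressed epithelium, stood at 243 and 839 CPM in kit 2 and at 57.5 and 212 CPM in kit 3, each time with ApcMin first, a log2 difference of 1.83 ± 0.17 (adjusted p = 0.00138). UMIs of it were found in 149 of 363, 146 of 231, 17 of 54 and 107 of 234 members, and the member with the most held 10.3% to 24.3% of them in a library. Gsta1, a glutathione transferase, stood at 109 and 364 CPM and at 11.8 and 43.7 CPM (1.79 ± 0.17, adjusted p = 0.00188), with UMIs in 38.3%, 51.9%, 27.8% and 30.8% of members. For both genes VApcMinL was higher in each kit, but ApcMin replicate 1 lay above VApcMinL replicate 2. The gene 2010109I03Rik stood at 16.1 and 61.6 CPM and at 1.07 and 24.3 CPM (2.31 ± 0.32), and a single member held 59.8% of its UMIs in VApcMinL replicate 2. Chgb, a protein of endocrine secretory granules, stood at 3.67 and 52.5 CPM and at 6.45 and 35.9 CPM (3.33 ± 0.31), but 97.8% of its UMIs in VApcMinL replicate 1 and 79.0% in VApcMinL replicate 2 came from 1 member each.

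The other genes higher in VApcMinL in both kits were Il1rn, Zg16, Lgals3, Alpi, Creb3l3, Rbp2, Krt20, Reg1 and Dgat2, by 1.19 to 1.65, and they are named here because they were few. Zg16 is a goblet marker, and the member with the most held 38.9% and 46.0% of its UMIs in the ApcMin libraries and 15.7% and 21.2% in the VApcMinL libraries. The summed goblet list was also higher in VApcMinL, at 8633 and 17028 CPM in kit 2 and 12720 and 13231 CPM in kit 3. Of its 10 genes 4 had the same direction in both kits and 6 did not. Without members carrying markers of other cell types 19 genes were called between the groups, 15 of them among the 23. The part of goblet markers alone was not tested. Alpi (alkaline phosphatase of the brush border), Rbp2 (retinol binding), Krt20, Dgat2 (triglyceride synthesis) and Gsta1 are 5 of the 31 absorptive maturation genes tested, of which 5 were called higher, 0 lower and 19 had the same direction in both kits. Rbp2 stood at 796 and 1651 CPM and at 182 and 637 CPM (1.42 ± 0.21), and Alpi at 87.1 and 249 CPM and at 17.7 and 48.5 CPM (1.49 ± 0.17). Of the antimicrobial list Reg1 (1.25 ± 0.20) and Sprr2a3 were called of 20 tested. Among the cell cycle genes none of 32 was called, and 28 of 32 had the same direction in both kits, with medians of -0.38 in kit 2 and -0.67 in kit 3. Stress genes went in opposite directions in the 2 kits in 14 of 14. Igfbp7, a secreted protein of endothelium and stroma, was the one eligible gene lower in VApcMinL, at 115 and 39.0 CPM and at 2.15 and 0.737 CPM (-1.56 ± 0.22), and the kit 3 values rest on 4 UMIs in each library. Its direction turned to 1.40 with at least 4 of the 5 genes detected and to 3.16 without ApcMin replicate 1 in a fit with no kit block. Lef1 was too low in members to be tested.

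**Figure D5:**
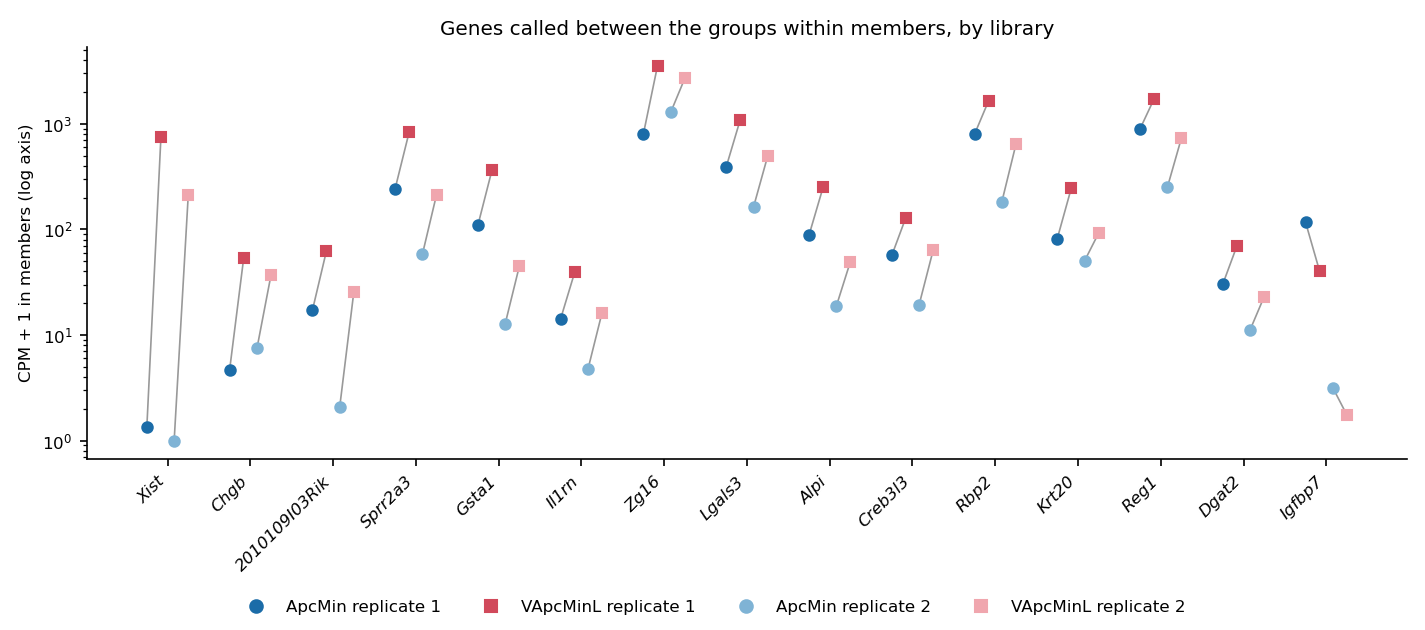
Level in members (CPM + 1, log axis) of the 15 genes called between the groups with the same direction in both kits, with 1 point per library and a line joining the 2 libraries of a kit. VApcMinL is higher in both kits for 14 genes and lower for Igfbp7, and the lines of the 2 kits start from different levels.

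These calls depended on the block. Without the kit in the fit 0 genes were called by edgeR and 63 had an unadjusted p under 0.05. On the thinned cells 2 genes were called, and Gsta1 and 2010109I03Rik then turned to -0.29 and -0.08. A test of whether the contrast between members and enterocyte-gate cells differed between the groups called 3 of 10335 genes (0.0290%), namely Chgb (0.00968% of genes were called higher) and Hba-a1 and Hba-a2 (0.0194% lower).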

How the data were processed

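Droplet 3′ RNA libraries of pooled adenomas, 2 per group, were deposited by the authors as unfiltered matrices of UMI counts per gene and barcode, not normalized. The submitters' notes name Cell Ranger 2.1.1 with an mm10 reference and Seurat 3.1.1, while the file headers of kit 3 name Cell Ranger 3.1.0. The tables list 27998 and 31053 genes, of which the 27514 shared were used, leaving out 0.212% to 0.729% of UMIs. Raw counts were used without integration.

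Members were chosen by the stated limits. The members and gene lists were chosen with earlier results of these data known. UMIs were summed per library and class and tested with edgeR 4.0.16 in R 4.3.3 (quasi-likelihood test, TMM scaling, filterByExpr with a minimum count of 10, Benjamini-Hochberg adjusted p of 0.05), with the library as a block between classes and the kit between groups. The 17 gate genes were left out. Gene names came from a rule: the 10 largest called rises and falls per class comparison with at least 50 CPM in the higher class and the same direction in all 4 libraries, up to 4 genes per list and direction by mean CPM, and between groups Lef1 and the 5 largest called rises and falls with at least 20 CPM and the same direction in both kits. A gene outside it is named where a result turns on it. CPM of the rule genes, lists and single genes in summed classes are plain, and CPM beside a log2 difference are scaled within that comparison. The replicate number marks the kit, and libraries of 1 kit deviated together from their group means (r = 0.654 across 10661 genes, which are not independent replicates). Shares were compared with a two-sided exact permutation test in scipy 1.17.1. Doublets were kept, and in an alternative the highest Scrublet scores (scanpy 1.11.5) were removed at 0.8% per 1000 cells. Alternatives covered the mitochondrial limit, thinning to 2000 UMIs, 4 of 5 genes, doublets, markers of other cell types, scaling, DESeq2 1.42.0, the filter, the block and each library. The scripts were tested on simulated data. Crypt-gate cells (2, 0, 4 and 14 in the 4 libraries) were too few to compare. No sequences were printed, since the members are cells.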

Additional observations from a re-analysis of the deposited data

Results flagged for a closer look

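In 3 genes the contrast between members and enterocyte-gate cells differed between the groups in the edgeR test of that difference. Hba-a1 and Hba-a2, the alpha chains of haemoglobin, gave differences of -5.21 ± 0.75 and -5.05 ± 0.71 on the log2 scale (VApcMinL minus ApcMin, SE, adjusted p = 0.0248 each). Hba-a1 stood at 2173, 4.70, 0 and 0 CPM in members and at 163, 10.9, 0.140 and 1.31 CPM in enterocyte-gate cells, so the value rests on ApcMin replicate 1. There 300 of 363 members had a UMI and 1 member held 16.8% of them. The 7 members of that library with erythroid markers at 1% of UMIs or more held 93.4% of its members' erythroid marker UMIs. Chgb gave 5.67 ± 0.81 (adjusted p = 0.0248), at 3.26, 46.8, 5.71 and 31.6 CPM in members and 13.5, 0, 49.0 and 7.31 CPM in enterocyte-gate cells, with most member UMIs of each VApcMinL library in 1 cell. Without members carrying markers of other cell types Hba-a1 gave -0.80 and Chgb 4.01, neither past the threshold, and Hba-a2 was not tested.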

How the results depend on the processing

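The difference in the share of members (-2.85 points) turned to 0.885 points on thinned cells and ran from -11.2 to 5.51 points when each library was left out, 5.51 without ApcMin replicate 1. Counts of called genes against enterocyte-gate cells (5431 to 7650) and adenoma-gate cells (3249 to 6739) stayed within 1.5 times of 7025 and 4698 under all alternatives run. Between the groups the 23 genes became 111 with 4 of 5 genes detected, 14 with DESeq2, 2 on thinned cells, 42 with a mitochondrial limit of 10%, 171 with no filter and 9 without Scrublet doublets. They became 24 with DESeq2 size factors. Without members carrying other markers, and with the block kept, 19 were called, 15 of them among the 23. With no replicate block edgeR called 0 genes (63 at an unadjusted p under 0.05). With the block no fit was possible without a library, since no residual degrees of freedom remain, so each library was left out without the block, an alternative chosen after seeing the data in which the lone library is assumed to vary like the others. These fits called 0 to 2 genes, and 0 to 1 also without members carrying other markers. The 3 interaction genes became 5, 1, 17, 1 and 23 with 4 of 5 genes, DESeq2, thinning, the mitochondrial limit of 10% and no filter, and 1 to 45 with each library left out, with 45 without ApcMin replicate 1, 20 without ApcMin replicate 2 and 1 without VApcMinL replicate 2. Without members carrying other markers Reg4 reversed to -1.77 and -0.48 and Slpi to -1.57. With 4 of 5 genes Slpi gave -1.32 and Igfbp7 1.40, and with the limit of 10% Gsdmc2 gave -0.56. On thinned cells Slpi gave -0.79, Lgals4 0.012, Lgals3 0.17 and Slc40a1 1.05 against enterocyte-gate cells and Cybrd1 0.54 against adenoma-gate cells, while 2010109I03Rik gave -0.077 and Gsta1 -0.29 between groups and Hba-a1 0.15 and Hba-a2 0.42 in the interaction. Without VApcMinL replicate 1 Gsta1 gave -0.51, and -0.48 also without members carrying other markers, where Chgb gave -0.91. Without ApcMin replicate 1 Igfbp7 gave 3.16 and 2.90 in the same pair of fits. The cause of these changes was not tested. Comparisons with crypt-gate cells were not run. Over the named genes and alternatives, 1287 of the adenoma values and 1231 of the enterocyte values kept direction and side of the threshold, and 67 and 53 kept the direction only. Depth limits low genes: Lef1, with 0 to 4 UMIs over the members of a library, was too low to be tested between groups.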
